A study of Mus musculus with 80 samples.

Results

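The 9 transcripts described here encode liver-secreted proteins of the fasted and fed states: Fgf21, Gdf15, Angptl4, Angptl6, Angptl8, Fst, Fetub, Ahsg and Enho. They were taken by symbol from the raw gene count table, and the list was chosen with earlier results of these data known. All 9 of the 78275 listed genes were found, each under a single identifier, and all 9 were among the 21187 genes that passed the filter on low counts. C57BL/6J mice (given as C57BL/6 among the labels), 8 to 12 weeks of age, were entrained to light and dark, released into constant darkness, and sampled at 10 circadian times (CT) from CT8 to CT44, 4 h apart. Control mice kept chow throughout, whereas the fasted mice had theirs taken away at CT10, so that at CT8 they were still fed and at CT12 to CT44 they had fasted for 2 to 34 h. Whole tissue from the left liver lobe of 2 males and 2 females was sequenced for each treatment and time, 80 libraries in all, 40 of control and 40 of fasted mice. Mice were housed in groups, and which mice shared a cage is not among the labels. In whole tissue, fewer cells of a type cannot be told apart from less RNA per cell.

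Hepatokines are proteins that the liver releases into the blood to act on other tissues. Fgf21 (ENSMUSG00000030827.6), an endocrine fibroblast growth factor, is induced in the fasted liver through the fatty acid receptor PPARα and signals through FGF receptors with the co-receptor β-Klotho. Gdf15 (ENSMUSG00000038508.8) is a stress-responsive cytokine whose receptor lies in the hindbrain and restrains appetite. Angptl4 (ENSMUSG00000002289.17) and Angptl8 (ENSMUSG00000047822.9) both act on lipoprotein lipase, the enzyme that unloads circulating triglyceride. The former inhibits it in fat during fasting, and the latter, induced by feeding and insulin, takes part in its inhibition in muscle. Angptl6 (ENSMUSG00000038742.8) is a further angiopoietin-like protein, linked to energy expenditure. Fst (ENSMUSG00000021765.10) encodes follistatin, which binds and neutralises activins. Fetub (ENSMUSG00000022871.14) and Ahsg (ENSMUSG00000022868.7), the fetuins B and A, are abundant plasma glycoproteins of the cystatin family, of which fetuin A binds calcium phosphate. Enho (ENSMUSG00000028445.8) encodes the peptide precursor of adropin, linked to fuel choice.

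The stretches upstream of the transcription start of Fgf21 and Angptl8 are shown because these were the members with the largest rise and the largest fall, and they were the members whose windows held the letters ATTGCATCA, known as an amino acid response element. Both run 5′ to 3′ on the strand of the gene, end at the base before the start, and come from RefSeq on build GRCm38.p6. Fgf21 lies at chr7:45615491-45615740 on the minus strand and Angptl8 at chr9:21835260-21835509 on the plus strand. Capitals mark the letters searched for.
Fgf21: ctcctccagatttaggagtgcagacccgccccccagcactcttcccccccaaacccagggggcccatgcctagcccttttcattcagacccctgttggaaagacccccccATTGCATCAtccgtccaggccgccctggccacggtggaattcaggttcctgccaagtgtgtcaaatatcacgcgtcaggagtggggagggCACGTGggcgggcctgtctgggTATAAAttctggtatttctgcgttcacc
Angptl8: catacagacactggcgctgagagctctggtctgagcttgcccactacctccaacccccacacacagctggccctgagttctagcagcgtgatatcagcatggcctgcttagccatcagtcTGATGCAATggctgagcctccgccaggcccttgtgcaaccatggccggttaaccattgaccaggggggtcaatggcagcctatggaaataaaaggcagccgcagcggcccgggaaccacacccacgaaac

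In Fgf21 the capitals mark, from left to right, the amino acid response element, starting 140 bases before the start, the E-box CACGTG at 50 bases, bound by CLOCK and BMAL1, and the TATA box TATAAA at 28 bases. In Angptl8 they mark the amino acid response element on the opposite strand, at 130 bases. Windows of the same 250 bases were found for 6 of the 9 members (8 windows), and none for Angptl4, Fst and Enho. Of 32851 such windows of all genes, 0.167% held ATTGCATCA on either strand, 6.02% held CACGTG and 12.4% held TATAAA. The E-box was also present in 1 of the 2 windows of Gdf15, the TATA box in 1 of the 2 of Fetub, and the nuclear receptor hexamer AGGTCA (14.0% of all windows) in the other window of Gdf15. The cAMP response element TGACGTCA (1.55%), the C/EBP palindrome TTGCGCAA (0.164%) and the D-box TTATGTAA (0.819%) matched no window of the members. The letters do not overlap each other in these windows, and a match is a description of sequence, not a site shown to be bound.

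Total gene counts were 25534901 to 59927771 per library (median 42303883). The library labelled control CT8 female 2 held 31.3% of its counts on the ribosomal gene Rn18s-rs5, against at most 4.88% elsewhere. Hepatocyte markers dominated every library, Alb alone with a median of 69300 CPM (counts per 1000000 counts of the library) in control and 70100 in fasted mice. Of the 5 adipocyte markers, the summed level had a median of 0.0766 CPM in control and 0.165 CPM in fasted mice from CT12 on, and Lep was at 0 in 77 of 80 libraries. All 5 were highest in fasted CT8 female 1, before food removal (Cfd 7.47 and Adipoq 1.97 CPM). The 6 pancreatic acinar markers, of interest because the pancreas also makes Fgf21, summed to at most 0.539 CPM in fasted mice, and 1 control library (CT44 male 2) reached 13.6 CPM, with 0.387 CPM of Fgf21. All 5 Kupffer cell markers fell with fasting, their summed level from a median of 284 CPM (range 182 to 541) to 212 CPM (118 to 390.3), and 4 of 5 cholangiocyte markers fell, from 39.1 CPM (24.6 to 66.0) to 23.7 CPM (6.78 to 50.3). Of 5 stellate cell markers 3 fell and 1 rose, of 5 sinusoidal endothelium markers 2 fell and 2 rose, and of 5 red cell markers 2 fell. Of all genes tested, 62.5% were called in the mean after food removal, 6976 lower and 6257 higher. The part of these cell types in the results below was not tested.

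Over the 9 times after food removal, 7 of the 9 members differed between fasted and control mice in the mean, 4 higher and 3 lower, where 62.5% of all genes tested were called (edgeR quasi-likelihood, Benjamini–Hochberg adjusted p under 0.05). Fgf21 was 15.4-fold higher (log2 change 3.95 ± 0.25, SE) and Angptl4 5.04-fold higher (2.33 ± 0.15). Angptl8 was 11.0-fold lower (-3.46 ± 0.16), Enho 1.91-fold lower (-0.93 ± 0.10) and Angptl6 1.40-fold lower (-0.49 ± 0.04). Fetub (0.17 ± 0.03) and Ahsg (0.11 ± 0.05, adjusted p = 0.0494) were called for differences of 1.12-fold and 1.08-fold. At CT8, before food removal, Fetub already differed by 0.14 ± 0.09 and Ahsg by 0.10 ± 0.14, neither called. Whether their means exceeded these earlier differences was not tested. The call of Ahsg, at the edge of the threshold, was lost in 20 of 30 alternatives, with the largest adjusted p at 0.335 (0.07 on the log2 scale) when the second female of every group was left out. Gdf15 (0.26 ± 0.15, adjusted p = 0.13) and Fst (0.39 ± 0.20, adjusted p = 0.0811) did not pass in the mean. A joint test over the 9 times, which also finds changes that turn direction, called 7 members as well (61.7% of all genes), with Gdf15 (adjusted p = 0.0202) in the place of Ahsg (adjusted p = 0.142). That call of Gdf15 was lost in 7 of 21 alternatives, among them limma-voom (adjusted p = 0.129), the fit without the second male of every group (adjusted p = 0.305, the highest) and that without the library fasted CT16 female 2 (adjusted p = 0.0727). The median log2 change was 0.17 over the members and -0.02 over all genes tested.

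**Figure D1:**
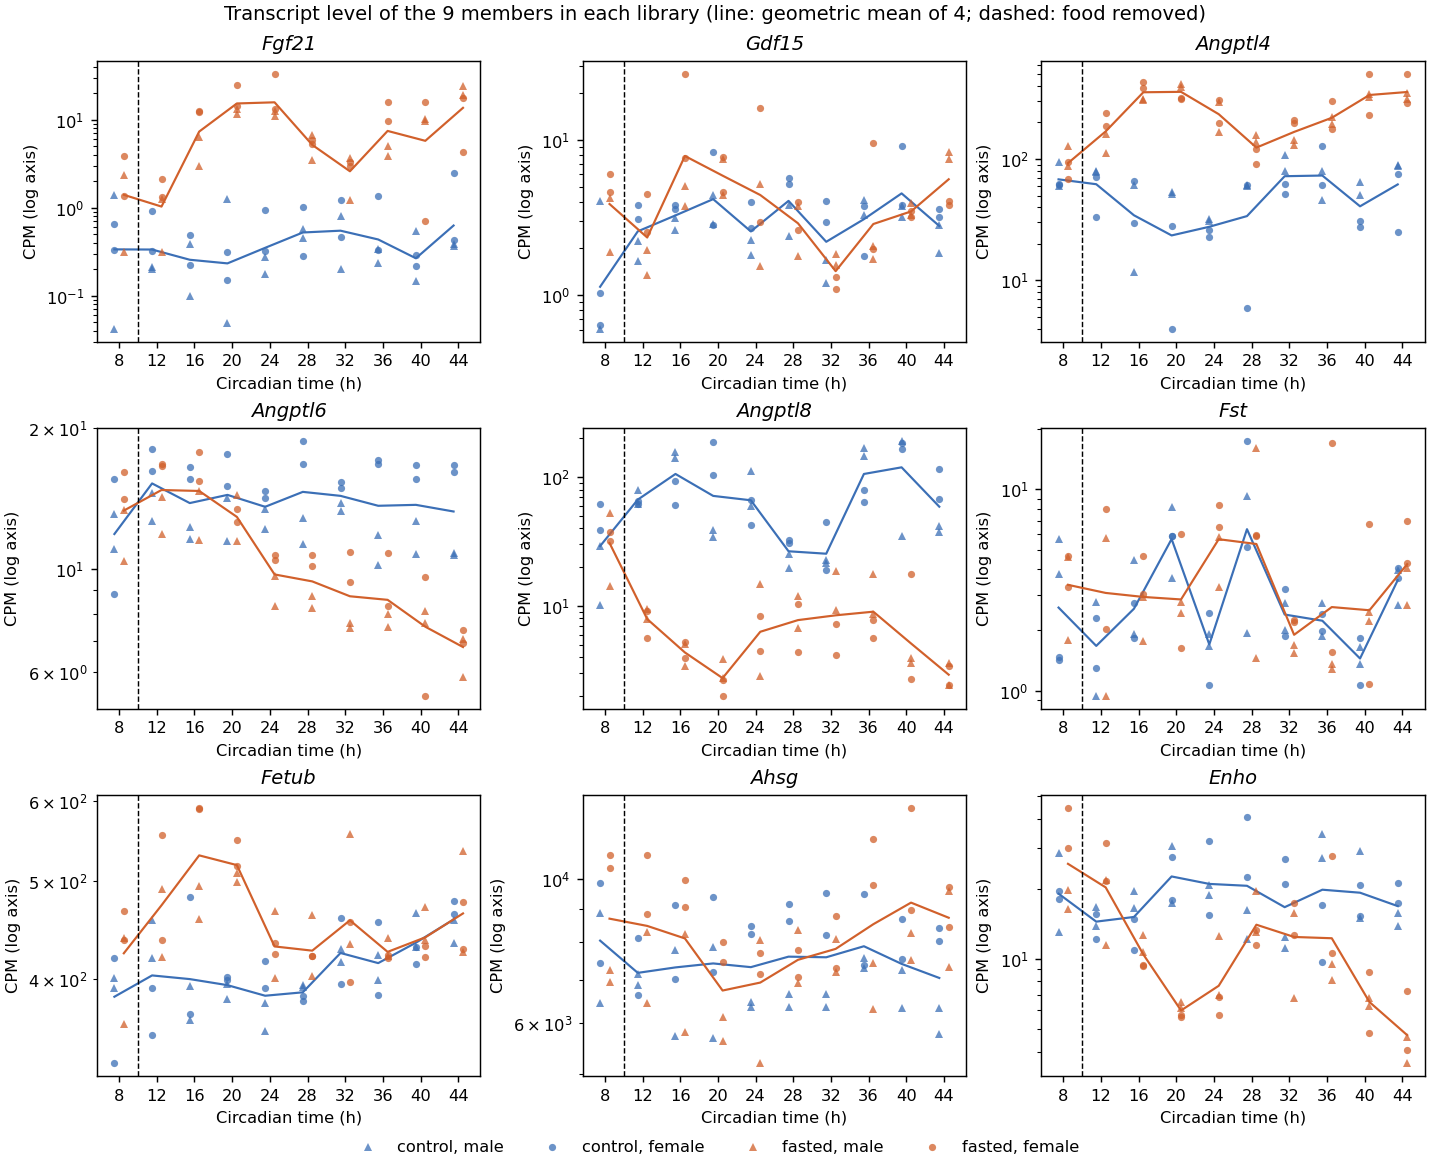
Level of each member in CPM on a log axis (y) against circadian time in h (x), with 1 point per library (triangles, males; circles, females; blue, control; orange, fasted), the geometric mean of the 4 libraries as a line and the time of food removal dashed. The fasted points of Angptl8 lay below all control points of their time from CT12 to CT44, and those of Fgf21 lay above them from CT16 to CT44.

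The members were called from different times on, taking as onset the earliest of 2 consecutive times called in the same direction. Angptl8 was first, already lower at CT12, 2 h into the fast. Fgf21, Angptl4 and Fetub followed at CT16 (6 h, all higher), Enho at CT20 (10 h, lower) and Angptl6 at CT24 (14 h, lower). Gdf15 was called at CT16 alone, Fst at CT24 alone and Ahsg at no time, so that these had no onset. Of all genes tested, 1.36% had their onset at CT12, 15.7% at CT16, 6.81% at CT20 and 1.71% at CT24, and 58.8% had none. This order is one of calls, and no difference in onset between members was tested. The adjustment also differed by time, with 1.6% of all genes called at CT12 and 23.4% at CT16. By edgeR's test Angptl4 at CT12 (unadjusted p = 0.0023) was not called, whereas Gdf15 at CT16 (unadjusted p = 0.0034) was.

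Before food removal, at CT8, 0 of 9 members were called by edgeR's test, where 1.33% of all genes were. Of the members, Fgf21 and Gdf15 had the largest differences at that time, 1.58 ± 0.73 (adjusted p = 0.338) and 1.55 ± 0.48 (adjusted p = 0.0914) on the log2 scale, with an unadjusted p of 0.035 and 0.00245, and they were the 2 members under 0.05. Without fasted CT8 female 1, the library with the highest adipocyte markers and the highest Fgf21 of its group, and the control library with pancreatic markers, the difference was 1.11 ± 0.81 for Fgf21 (adjusted p = 0.661) and 1.65 ± 0.53 for Gdf15 (adjusted p = 0.172). At CT12 1 member was called (1.6% of all genes), at CT16 5 (23.4%), at CT20 5 (36.6%), at CT24 6 (24.1%), at CT28 4 (21%), at CT32 4 (17.7%), at CT36 4 (26.8%), at CT40 5 (39.9%) and at CT44 5 (39.4%). By the simpler measure of 4 fasted libraries lying wholly above or below the 4 control libraries, 0 members were separated at CT8 (2.09% of all genes), 2 at CT12 (5.96%), 3 at CT16 (18.9%), 5 at CT20 (29.8%), 6 at CT24 (19.5%), 5 at CT28 (18.5%), 4 at CT32 (18.5%), 3 at CT36 (21.5%), 5 at CT40 (26.7%) and 6 at CT44 (30.1%).

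**Figure D2:**
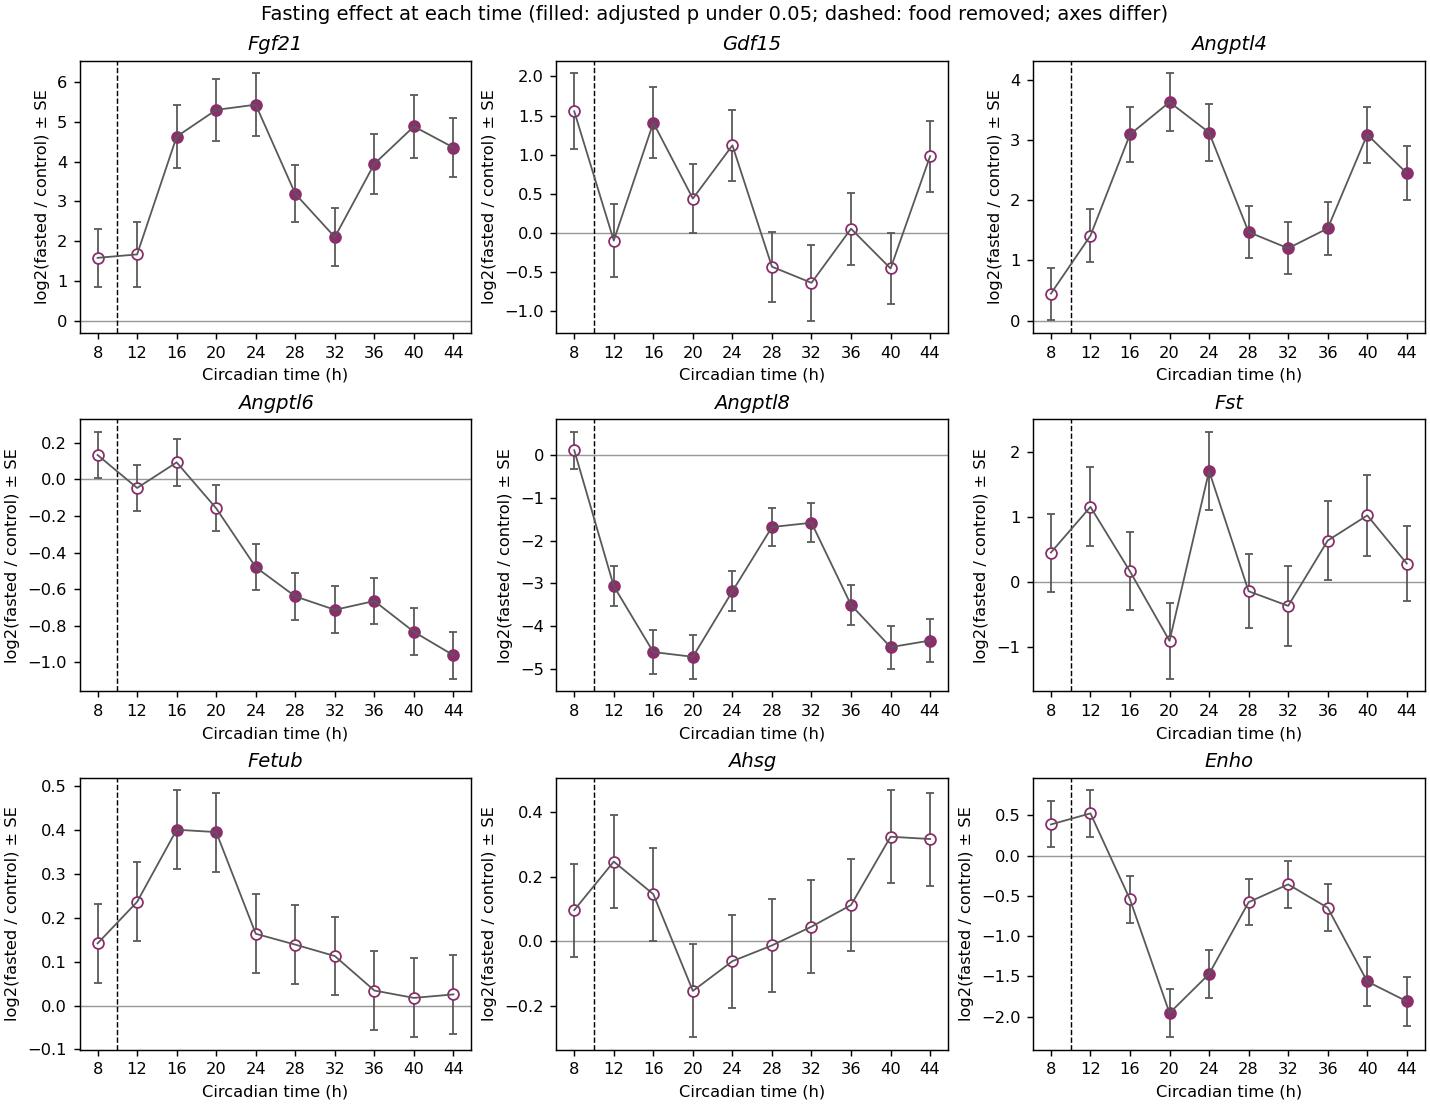
Fasted minus control difference on the log2 scale with its SE (y; scales differ between panels) at each circadian time in h (x), filled where the adjusted p was under 0.05. Fgf21, Angptl4, Angptl8 and Enho were farthest from 0 at CT20 or CT24 and came nearest to it, after onset, at CT32, whereas Angptl6 was lowest at the end (-0.96 at CT44).

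Angptl8, the angiopoietin-like protein of the fed state, was the only member called at all 9 times. At CT12 the 4 control libraries (male 1, male 2, female 1, female 2, the order used throughout) had 62.1, 79.2, 65.6 and 62.0 CPM, and the fasted libraries 7.98, 9.50, 5.61 and 9.21 CPM. After 2 h without food every fasted library was thus below every control library, a log2 change of -3.06 ± 0.47 (adjusted p = 0.000113). This call was lost in 1 of 22 alternatives, males alone (adjusted p = 0.354), where 0% of all genes were called at CT12. At CT20 the control libraries had 39.2, 34.2, 186 and 105 CPM and the fasted ones 3.90, 2.77, 2.00 and 2.66 CPM, the largest difference of the series of times (-4.71 ± 0.52, adjusted p = 5.99e-10). At CT32, in the subjective day, control libraries had 21.7, 22.7, 44.5 and 19.1 CPM and fasted ones 18.6, 9.24, 7.19 and 4.14 CPM, and the difference was at its smallest (-1.59 ± 0.45, adjusted p = 0.01). The groups still did not overlap, but the call was lost without the second male of every group (-1.36, adjusted p = 0.0973) or either female (adjusted p = 0.107 and 0.0575). In males alone the CT32 difference was -0.68 (adjusted p = 0.591), and the CT28 call was lost too (adjusted p = 0.251). With all mice the difference grew again to -4.49 ± 0.50 at CT40 and -4.33 ± 0.51 at CT44. The level moved in both groups: the control mean went from 113 CPM at CT16 to 27.0 CPM at CT32 and 143 CPM at CT40, and the fasted mean from 2.83 CPM at CT20 to 9.91 CPM at CT36 and 2.98 CPM at CT44. At CT40 the library fasted female 1, at 17.6 CPM, stood above the other 3 (2.73 to 3.93 CPM), and the control male 1, at 35.1 CPM, below the other 3 (164 to 191 CPM). Angptl8 lies within the gene Dock6, which is read from the opposite strand. The libraries kept strand, and whether the counting did is not given in the sources used here.

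Fgf21, the endocrine growth factor of fasting, was near the limit of detection in fed liver. Its 36 control libraries from CT12 on held 2 to 116 counts, with a median of 0.333 CPM. At CT16 the control libraries had 0.0991, 0.386, 0.225 and 0.493 CPM and the fasted ones 6.36, 2.95, 12.4 and 12.2 CPM, so that the groups did not overlap (4.63 ± 0.80, adjusted p = 1.82e-05). At CT12, 2 h into the fast, they did: 0.200, 0.214, 0.909 and 0.320 CPM in control and 0.314, 1.25, 1.33 and 2.13 CPM in fasted mice (1.67 ± 0.82, adjusted p = 0.364). Before food removal the mice to be fasted had 0.313, 2.33, 3.86 and 1.35 CPM and the controls 0.0418, 1.38, 0.659 and 0.331 CPM, which also overlapped. The rise was greatest at CT24, at 0.273, 0.178, 0.942 and 0.324 CPM against 12.5, 11.1, 33.1 and 13.2 CPM (5.44 ± 0.79, adjusted p = 7.27e-07). By CT32 it had shrunk to 2.10 ± 0.72 (adjusted p = 0.0368), with 0.198, 0.809, 1.21 and 0.460 CPM in control and 3.63, 1.23, 3.32 and 2.996 CPM in fasted mice. The control mean stayed between 0.298 and 0.918 CPM throughout, and the fasted mean went from 17.5 CPM at CT24 to 2.80 CPM at CT32 and 16.2 CPM at CT44. From CT16 on the groups did not overlap at any time. The CT32 call was lost without the first male of every group (1.26, adjusted p = 0.449), and in 8 of 22 alternatives in all.

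At CT40 the library labelled fasted female 2 had 0.700 CPM of Fgf21 (19 counts), against 9.58, 10.1 and 15.9 CPM in the other 3 of its group. The same library had the highest Angptl4 of its group (499 CPM), the highest Ahsg (12868 CPM) and the lowest Angptl6 (5.34 CPM) of all 80. In the deposited table of counts per exon bin, the columns of fasted CT40 do not follow those of the gene table, and there the female 1 column held 19 counts of Fgf21. Counts of Xist, made from the inactive X chromosome, and of the Y-linked Ddx3y, both looked up after the values were seen, followed the labelled sex in all 80 libraries of the gene table. In the exon table they went against it in 2 columns, fasted CT40 male 2 (53504 counts of Xist) and female 2 (11 counts). The library with little Fgf21 was thus female in both tables, and its replicate number differs between them. Without this library the CT40 difference of Fgf21 was 5.36 ± 0.74 (adjusted p = 1.92e-07), against 4.89 ± 0.78 with it.

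Angptl4, the fasting-induced inhibitor of lipoprotein lipase, separated the groups from CT12 on, with 79.0, 77.7, 33.6 and 71.6 CPM in control and 161, 112, 239 and 188 CPM in fasted mice. That difference did not pass the test (1.41 ± 0.44, adjusted p = 0.084), although it did in DESeq2 (adjusted p = 0.038) and when the 8 libraries of that time were fitted alone (adjusted p = 0.0321), which would bring the onset forward to CT12. At CT16 it did (3.09 ± 0.46, adjusted p = 1.83e-06), and the largest came at CT20, with 51.2, 53.1, 3.99 and 28.01 CPM against 418, 392, 319 and 312 CPM (3.63 ± 0.48, adjusted p = 4e-08). At CT32 it was 1.202 ± 0.44 (adjusted p = 0.0477), with 79.5, 107, 61.9 and 51.4 CPM in control and 143, 130.3, 211 and 198 CPM in fasted mice. The 2 groups did not overlap at any of the 9 times. In control mice the mean level went from 27.9 CPM at CT24 to 74.996 CPM at CT32 and 78.5 CPM at CT36. The 3 lowest control libraries stood far below the rest of their groups, at 3.99 CPM (CT20 female 1), 5.88 CPM (CT28 female 2) and 11.8 CPM (CT16 male 1). Without CT28 female 2 the CT28 difference was 1.04 ± 0.43 (adjusted p = 0.0975) in place of 1.47 ± 0.44 (adjusted p = 0.012). The CT32 call, close to the threshold, was lost in 12 of 22 alternatives, with an adjusted p of up to 0.448 (0.55 on the log2 scale) in males alone. The CT28 call was lost in 7 of 22 alternatives and the CT36 call in 3 of 22.

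Enho, the adropin precursor, was first called at a later time than Angptl8 and Angptl4. At CT16 the control libraries had 19.6, 16.5, 14.8 and 10.9 CPM and the fasted ones 12.7, 10.7, 9.39 and 9.28 CPM, which overlapped (-0.54 ± 0.29, adjusted p = 0.189; 0.0169 when these 8 libraries were fitted alone). At CT20 they no longer did, with 30.4, 17.4, 27.4 and 17.9 CPM against 6.16, 6.51, 5.65 and 5.73 CPM (-1.95 ± 0.30, adjusted p = 1.06e-06). The 4 fasted values lay within 0.86 CPM of each other. The difference was not called at CT28, CT32 and CT36 (-0.58, -0.36 and -0.65), and was called at CT40 (-1.56 ± 0.30) and CT44 (-1.81 ± 0.30, adjusted p = 5.13e-06). Leaving out fasted female 2, the difference at CT36 was -1.06 ± 0.32 (adjusted p = 0.0118). The sexes pointed opposite ways at CT36, with -1.80 in males alone (adjusted p = 0.00207) and 0.50 in females alone (adjusted p = 0.457). At CT44 the control libraries had 15.8, 13.8, 17.4 and 21.2 CPM and the fasted ones 3.57, 4.63, 7.29 and 4.07 CPM. Fasted levels moved more than fed ones: the fasted mean went from 6.01 CPM at CT20 to 14.3 CPM at CT28 and 4.89 CPM at CT44, and the control mean stayed between 14.5 and 23.3 CPM. In the reference annotation Enho overlaps Dnaic1 and Gm12406 on the opposite strand.

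Angptl6 moved late and was lowest at the end. Up to CT20 no difference was called, with 14.2, 11.5, 17.6 and 15.01 CPM in control and 11.5, 14.4, 13.4 and 12.6 CPM in fasted mice at that time (-0.16 ± 0.13, adjusted p = 0.351). At CT24 it was lower, at 13.4, 12.2, 14.7 and 14.2 CPM against 8.32, 9.64, 10.4 and 10.7 CPM (-0.48 ± 0.13, adjusted p = 0.00382). This call, which sets the onset, was lost without the first male of every group (-0.40, adjusted p = 0.163), in females alone (adjusted p = 0.162) and with no sex in the model (adjusted p = 0.0533). From there it fell to -0.96 ± 0.13 at CT44 (adjusted p = 7.03e-08), where control libraries had 10.8, 10.7, 16.1 and 16.7 CPM and fasted ones 7.09, 5.87, 6.95 and 7.39 CPM. At CT36 alone among the 6 times from CT24 on the groups overlapped, by 1 fasted female at 10.8 CPM. In the subjective day, at CT28 and CT32, the difference was -0.64 and -0.71, with no return towards the controls.

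The 2 fetuins changed little against their level. Fetub had a mean of 403 ± 54.7 CPM (SD, n = 4) in control and 534 ± 67.1 CPM in fasted mice at CT16 (log2 change 0.40 ± 0.09, adjusted p = 0.000727), and 395 ± 8.63 against 519 ± 21.5 CPM at CT20 (0.40 ± 0.09, adjusted p = 0.000445). At CT20 control libraries had 382, 395, 402 and 399 CPM and fasted ones 499, 510.0, 518 and 549 CPM, so that the groups did not overlap. Both calls fell in the first night, and from CT36 on the difference was 0.03 or less on the log2 scale. Ahsg, the most abundant member, had 7326.9 CPM as the median of the 36 control libraries and 8024 CPM as that of the fasted ones. Its largest difference, at CT40 (0.32 ± 0.14, adjusted p = 0.0686), was not called, nor was any other single time, and at all 9 times its groups overlapped.

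Gdf15, the stress cytokine, varied from mouse to mouse. At CT16 control libraries had 3.14, 2.63, 3.81 and 3.62 CPM and fasted ones 5.02, 3.76, 7.69 and 26.7 CPM (1.41 ± 0.45, adjusted p = 0.019), and this single call leaned on female 2, since without that library it was 0.83 ± 0.48 (adjusted p = 0.271). At CT24 the fasted female 1 had 16.1 CPM and the other 3 had 1.54 to 5.17 CPM (1.12 ± 0.45, adjusted p = 0.0674), and without female 1 the difference was 0.29 ± 0.47 (adjusted p = 0.765). At CT32 fasted mice had their lowest level, 1.57, 1.84, 1.31 and 1.10 CPM against 1.19, 1.68, 4.05 and 2.94 CPM, a difference of -0.64 ± 0.48. At CT44 the groups did not overlap, at 1.86, 2.83, 3.60 and 3.21 CPM in control and 8.38, 7.52, 4.04 and 3.82 CPM in fasted mice, but the difference was not called (0.98 ± 0.45, adjusted p = 0.0825), although it was when these 8 libraries were fitted alone (0.97, adjusted p = 0.00369) and in males alone (1.76, adjusted p = 0.0186). Before food removal the mice to be fasted had 1.91, 4.20, 4.65 and 6.01 CPM and the control mice 0.607, 4.07, 0.642 and 1.04 CPM.

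Fst, the activin antagonist, was called at CT24, with 1.66, 1.91, 2.44 and 1.07 CPM in control and 5.77, 3.26, 8.35 and 6.50 CPM in fasted mice (1.71 ± 0.60, adjusted p = 0.0329). These groups did not overlap, and at every other time they did. Without fasted female 1, the highest, the difference was 1.62 ± 0.65 (adjusted p = 0.0865). Control libraries were just as high 4 h earlier, at 8.18, 3.63, 5.88 and 5.88 CPM at CT20, where the difference was -0.91 ± 0.59 (adjusted p = 0.235). Single mice reached 17.4 CPM (control CT28 female 2), 17.0 CPM (fasted CT36 female 2) and 16.1 CPM (fasted CT28 male 1). After the group means were taken out, the SD between mice was 1.14 for Fgf21, 0.91 for Fst, 0.68 for each of Gdf15 and Angptl4, 0.69 for Angptl8, 0.43 for Enho, 0.20 for Ahsg, 0.18 for Angptl6 and 0.12 for Fetub on the log2 scale, against a median of 0.33 over all genes tested.

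Whether the fasting effect itself depended on the time of day was tested with a 24 h cosine, beside a linear change over time. The fasted and control rhythms differed for 5 of 9 members, where 23.2% of all genes were called: Fgf21, Gdf15 (adjusted p = 0.0461), Angptl4, Angptl8 and Enho. The difference between fasted and control mice was at its highest around CT20.3 for Fgf21, CT20.1 for Angptl4 and CT19.8 for Gdf15, all in the subjective night. For Angptl8 and Enho, which fell, it was highest, meaning nearest to or least below the controls, around CT5.99 and CT9.31, in the subjective day. Its peak-to-trough size was 3.32 ± 0.56 for Angptl8, 2.72 ± 0.68 for Fgf21, 2.20 ± 0.41 for Angptl4, 1.73 ± 0.33 for Enho and 1.55 ± 0.50 for Gdf15 on the log2 scale.

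In control mice 2 of the 9 members had a 24 h rhythm (41.8% of all genes). Angptl8 peaked at CT16.7, in the feeding phase, rising from trough to peak by 2.16 ± 0.36 in log2 units (4.46-fold, adjusted p = 2.85e-05). The fitted peak of Fst was at CT1.35 (1.64 ± 0.42, adjusted p = 0.00599). Its control mean was 5.89 CPM at CT20, 1.77 CPM at CT24 and 8.44 CPM at CT28, so the fitted peak fell beside a low sampled time. Angptl4, with a peak at CT10.6 and 0.98 ± 0.35, missed the threshold (adjusted p = 0.054), and Fgf21 had 0.65 ± 0.56 (adjusted p = 0.606). The control rhythm of Angptl4 was called in 4 of 18 alternatives. Its rhythm difference was lost in 1 of 21, females alone (adjusted p = 0.0732). In fasted mice from CT12 on 6 members were rhythmic (47.1% of all genes): Fgf21 (peak CT21.15, 2.60 ± 0.44), Gdf15 (CT19.7, 1.93 ± 0.42), Angptl4 (CT18.3, 1.48 ± 0.17), Enho (CT8.56, 1.61 ± 0.23), Angptl8 (CT7.81, 1.54 ± 0.37) and Ahsg (CT13.0, 0.31 ± 0.11, adjusted p = 0.0452). Angptl8 thus peaked at CT16.7 when food was present and at CT7.81 when it was not, although its fasted rhythm was not called without the first male of every group (1.19, adjusted p = 0.122) or in females alone (0.96, adjusted p = 0.391). The fasted series spans 32 h, so that a 24 h rhythm rests on little more than 1 cycle, and fasting length and time of day are told apart only through the linear term of the fit. Without the linear term, and with a quadratic one added, the rhythm difference of Gdf15 (adjusted p = 0.0525 and 0.0753, and lost in 12 of 21 alternatives in all) and the fasted rhythm of Ahsg (0.103 and 0.184) were not called. The rhythm difference of Fgf21 was not called without the second male of every group (2.19, adjusted p = 0.182), and the control rhythm of Fst without the second male or the second female (adjusted p = 0.0511 and 0.0706).

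**Figure D3:**
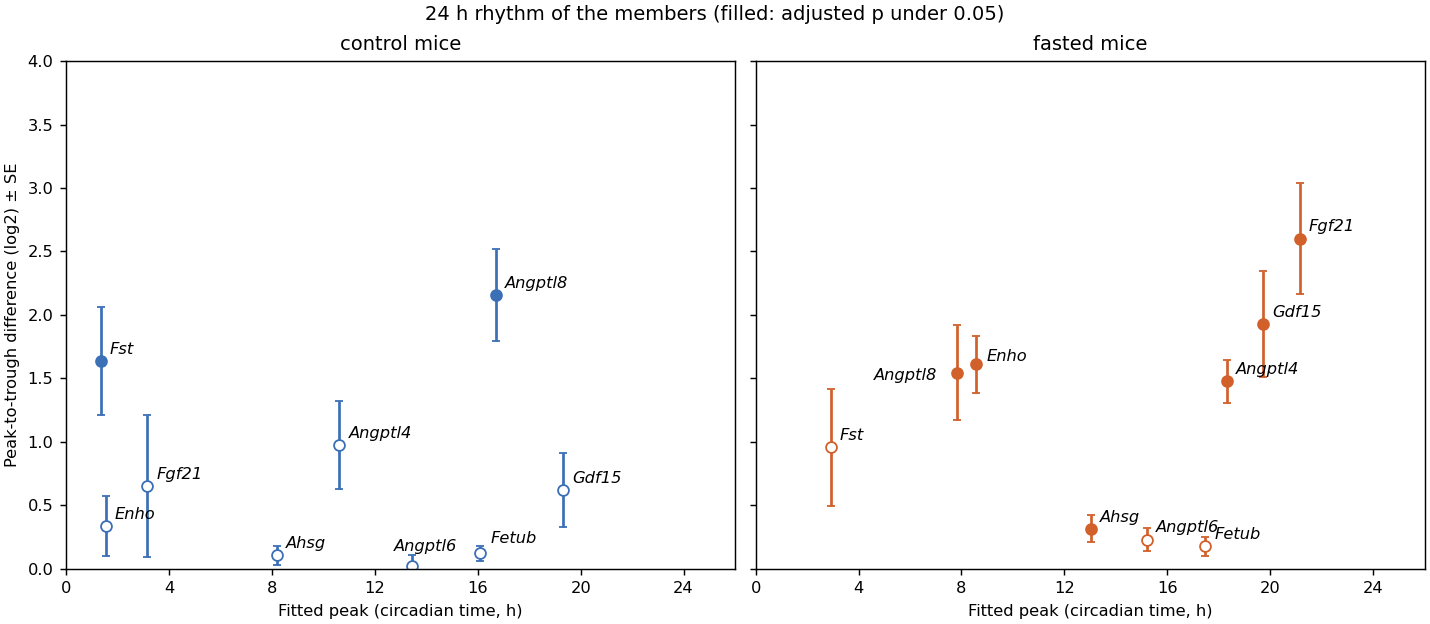
Fitted peak time in h of circadian time (x) against the distance from trough to peak in log2 units with its SE (y) for control (left) and fasted mice (right), filled where the adjusted p of the 24 h rhythm was under 0.05. In fasted mice Angptl4, Gdf15 and Fgf21 peaked between CT18.3 and CT21.15 and Angptl8 and Enho between CT7.81 and CT8.56.

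Compared at matched phases, the second night of the fast (CT36 to CT44) differed from the first (CT12 to CT20) for 3 of 9 members (21.2% of all genes), all of them downwards. Angptl6 went from a mean difference of -0.04 in the first night to -0.82 in the second, a change of -0.78 ± 0.10 (adjusted p = 3.93e-07). For Enho the first night included CT12 (0.52) and CT16 (-0.54), before its onset, and the difference was -1.95 at CT20 and -1.81 at CT44. Its mean went from -0.66 to -1.34 (-0.68 ± 0.24, adjusted p = 0.0356). Fetub went from 0.34 to 0.03 (-0.32 ± 0.07, adjusted p = 0.00136). The call of Enho was lost in 8 of 20 alternatives and that of Fetub in 3 of 20. Without the first male of every group both were not called (Enho -0.61, adjusted p = 0.207, and Fetub -0.28, adjusted p = 0.0921), nor was Enho without the library fasted CT40 female 2 (-0.61 ± 0.24, adjusted p = 0.0691). Fgf21 (3.87 and 4.40), Angptl4 (2.71 and 2.36) and Angptl8 (-4.13 and -4.11) were not called, with 95% intervals of the change from -0.72 to 1.78, from -1.04 to 0.33 and from -0.70 to 0.74.

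No sex difference of the mean fasting effect was called for the members (0 of 9 by edgeR's test, 2 at an unadjusted p under 0.05, against 12.4% of all genes called). Angptl4 rose by 1.97 ± 0.21 in males and 2.69 ± 0.22 in females (difference 0.72 ± 0.29, adjusted p = 0.0898), a difference that limma-voom called (0.87, adjusted p = 0.037). Angptl6 fell by 0.40 ± 0.06 in males and 0.58 ± 0.06 in females (adjusted p = 0.15). In the mean of the 10 control times, 3 members differed between the sexes (39.2% of all genes). Angptl4 was lower in females (-0.54 ± 0.19, adjusted p = 0.0237), which was not called without the first male (-0.63, adjusted p = 0.0976) or the second male of every group (-0.34, adjusted p = 0.403). Angptl6 (0.37 ± 0.06, adjusted p = 5.94e-07) and Ahsg (0.30 ± 0.06, adjusted p = 0.000221) were higher in females.

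**Figure D4:**
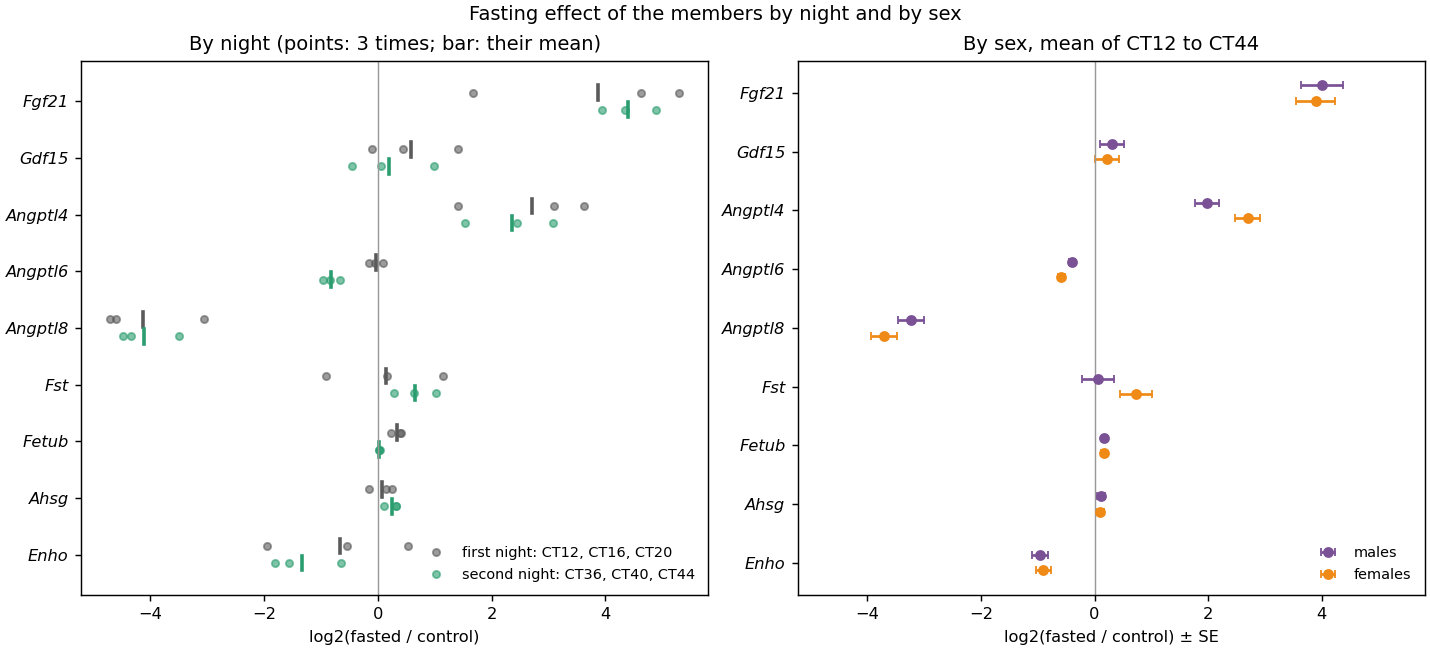
Fasted minus control difference on the log2 scale (x) of each member (y), at the left for the 3 times of each night (points) and their mean (bar), at the right as the mean of CT12 to CT44 in males and females with its SE. The second-night points of Angptl6 all lie below those of the first night, and the sexes differ by -0.11 for Fgf21 and by -0.01 for Fetub.

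The genes around the members were described by lists, whose counts of calls in the mean stand against the 62.5% of all genes called. Of other angiopoietin-like genes, Angptl2 fell by 0.57 and Angptl7 by 0.39 on the log2 scale. Angptl1, at -0.36, was not called (adjusted p = 0.201). Of 8 triglyceride lipases and partners 4 rose and 3 fell. Lpl, the lipase that Angptl4 and Angptl8 inhibit, changed by -0.83 and Lipc, hepatic lipase, by -0.46, whereas Apoa5 (0.61) and Lipg (0.50) rose. Of 5 FGF21 receptor genes tested 2 rose, Fgfr1 by 0.30 and Klb, which encodes β-Klotho, by 0.23, and 3 fell, of which Fgfr3 and Fgfr4 had -1.09 and -0.44. Kl did not pass the filter.

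PPARα and its targets had 14 of 15 higher and 1 lower, with a median of 1.46 against -0.02 over all genes. Ppara itself was at 0.64, Cidec (lipid droplets) at 5.62 and Cyp4a14 (fatty acid ω-oxidation) at 4.91, and Fabp1 was the exception, at -0.38. At CT12 3 of these 15 were called (1.6% of all genes), and at CT16, the onset of Fgf21 and Angptl4, 14 were (23.4%). Of 11 genes driven by insulin and SREBP-1, 11 fell (median -2.43). The greatest falls were those of Pnpla3 (-4.36) and Thrsp (-3.64), and Srebf1 was at -3.13. At CT12, when Angptl8 was called, 5 of the 11 were. In the integrated stress response list, of which Gdf15 and Fgf21 are known targets, 6 of 11 rose, Ddit4 (1.76) and Sesn2 (1.61) most, and 2 fell, Ddit3 (-0.29) and Atf4 itself (-0.27), a share called near the background of 62.5%. Ddit3 stands for 1 of 2 rows that carry this symbol.

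Among activins, their receptors and other follistatin-like genes, 4 of 11 tested rose and 5 fell. Inhbb rose by 2.39 and Inhbe by 0.44, and Inhba (-1.46) and Acvr1c (-1.03) fell. Of 5 cystatin-type relatives of the fetuins tested, 1 rose (Hrg, 0.26) and 2 fell (Kng1, -0.17, and Cstb, -0.12), a share called no higher than the background of 62.5%. All 12 other secreted signals were called, 8 higher and 4 lower. Igfbp1, the insulin-repressed binding protein of IGF-1, was at 4.34 and Lcn2 at 1.11, and Lect2 (-1.02) and Manf (-0.75) fell. Of 13 clock genes 7 rose and 4 fell, with Per1 at 1.46, Nr1d1 at 0.96, Npas2 at -0.69, Per2 at -0.64 and Bmal1 at 0.05 (adjusted p = 0.705).

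Levels can be compared between members only per length. Divided by the exon length of the reference annotation, the control mean was 3437 CPM per kb for Ahsg, 209 for Fetub, 87.1 for Angptl8, 15.6 for Angptl4, 15.3 for Enho, 8.88 for Angptl6, 1.77 for Gdf15, 0.73 for Fst and 0.548 for Fgf21. In fasted mice from CT12 on Angptl4 had 74.4 CPM per kb, Fgf21 9.95 and Angptl8 7.83. Fgf21, the lowest of the 9 in fed liver, thus came above Enho (8.67), Angptl8, Angptl6 (6.60), Gdf15 (2.62) and Fst (0.935), and Angptl8 went from the third place to the sixth. In fasted mice the ranges of the group means of Fgf21 (1.32 to 18.4 CPM per kb), Enho (3.85 to 17.0), Angptl8 (3.27 to 11.5) and Angptl6 (4.31 to 9.41) overlapped. In control mice so did those of Angptl4 and Enho (7.89 to 22.2 and 11.5 to 18.3), and those of Gdf15, Fst and Fgf21 (0.859 to 2.69, 0.321 to 1.84 and 0.313 to 0.965).

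The genes whose mean log2 CPM followed a member most closely over the 20 groups of treatment and time, out of 11576 of at least log2 CPM 1, were Rab30 (Pearson r = 0.976), Tlcd4 (0.972) and Slc25a22 (0.971) for Fgf21. For Angptl4 they were Lgals4 (0.974), Map1lc3b (0.968) and Tram2 (0.967), and for Angptl6 H2-Q10 (0.972), Selenbp2 (0.972) and Cyp1a2 (0.968). Angptl8 was followed by Tcaim (0.949), Ssr1 (0.942) and Mid1ip1 (0.94), and Enho by Apol9b (0.953), Apol9a (0.95) and Fras1 (0.949). The best for Fetub were Foxj2 (0.866), Cnnm2 (0.856) and Abcd3 (0.842), for Ahsg Dlgap4 (0.817), Rps16 (0.81) and Tut4 (0.809), for Gdf15 Man1a (0.816), A1cf (0.783) and Pon3 (0.78), and for Fst Gm34654 (0.757), Khnyn (0.748) and Hunk (0.708). Between members, over the same 20 groups, r was 0.915 for Fgf21 and Angptl4, -0.919 for Fgf21 and Angptl8, -0.909 for Angptl4 and Angptl8, and -0.828 for Fgf21 and Enho. These groups share the fasted and fed states, so the values describe the plots and carry no test.

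Counts per exon bin showed whether the bins of a gene moved alike. For Angptl8 the 4 bins changed by -3.67 to -3.60 on the log2 scale between control and fasted mice pooled over CT12 to CT44, for Fgf21 the 3 bins by 4.17 to 4.21, for Enho the 2 bins by -0.93 to -0.92, and for Angptl6 the 6 bins by -0.61 to -0.44. The 4 bins of Gdf15 with at least 100 counts changed by 0.40 and 0.46, in those that hold most counts, and by 0.85 and 1.29 in the others. Of the 14 such bins of Angptl4, 13 changed by 2.10 to 2.42, and bin 10, with 0.3% of the gene's counts in control and 0.56% in fasted mice, by 3.04. For Ahsg, bin 3 changed by -2.41 while the bins that hold most counts changed by -0.03 to 0.04. That bin had 3010 counts in control and 529 in fasted mice, and in each of 4 groups (control CT20, CT28 and CT36 and fasted CT28) 1 library held nearly all, 1118 of 1125, 780 of 790.0, 994 of 1001 and 333 of 345. These changes are of pooled counts divided by the total of all bin counts, not of TMM-scaled group means. On that scale all bins together changed by 0.008 for Ahsg and 0.084 for Fetub. In the fitted means above the changes were 0.11 and 0.17. The bins carry no coordinates, and no test was made on them.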

How the data were processed

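RNA was sequenced from whole liver of 80 mice as stranded, paired-end mRNA libraries. The authors deposited raw read counts per gene and per exon bin and, beside them, counts divided by 1 factor per library, which were not used here. The submitters' processing notes name Trimmomatic, HISAT2, DESeq2 and build GRCm39, and the counting program and annotation are not given in the sources used here. Groups follow the sample titles, since sex and treatment are given otherwise in the characteristics of 40 samples each. The design text gives each liver as 1 separately sequenced mouse. In all 40 replicate pairs the counts differed beyond sampling noise (chi-square per degree of freedom of at least 14.8).

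The raw gene counts were analysed in R 4.3.3 with edgeR 4.0.16. Genes passing filterByExpr were scaled by TMM, fitted with 40 means (treatment, time, sex) and a trended dispersion, and tested by quasi-likelihood. P-values were adjusted by Benjamini–Hochberg over all genes tested, with a threshold of 0.05. All 80 libraries thus shared an estimate of spread. CPM are TMM-scaled, and log2 CPM used a prior count of 2. Rhythms were fitted as a 24 h cosine and sine with sex as a term, plus a linear change by treatment wherever fasted libraries entered. Intervals are 95% intervals of the fitted difference and cover the spread between mice. The members and lists were chosen with earlier results of these data known, and the motif letters with the sequences in view. Members are all named, as are, of each list, the first gene and the 2 largest called changes in each direction, and the 3 genes most like each member. The count over 1 list is not reported here. Exon lengths and overlaps come from an annotation of an earlier mouse build (GRCm38). The exon bin table had 5 closing summary lines, left out here, and its counts were pooled over the libraries of control and of fasted mice, except where a group or library is named.

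Alternatives changed the scaling, filter, tool (limma-voom 3.58.1, DESeq2 1.42.0), threshold, libraries, sexes, times and rhythm model. Those leaving out single libraries in which a member or a marker list stood apart were chosen after seeing the data. The tests were tried on simulated data first. Figures were drawn with matplotlib 3.10.9.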

Additional observations from a re-analysis of the deposited data

Results flagged for a closer look

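In 12 of 180 groups of 4 libraries, 1 library lay far from the other 3 (Dixon's ratio above its 95% critical value). Chance flags about 1 in 20 groups, or 9 here, so the number is close to that. The 12 cases fell in 12 different libraries. For Fgf21 they were control CT44 female 1 at 2.485 CPM (the other 3 at 0.367 to 0.434), fasted CT24 female 1 at 33.06 CPM (11.1 to 13.2) and fasted CT40 female 2 at 0.6997 CPM (9.58 to 15.9). For Angptl4 they were all control libraries, CT8 male 2 at 94.82 CPM (59.9 to 62.1), CT12 female 1 at 33.6 CPM (71.6 to 79.0), CT28 female 2 at 5.88 CPM (59.4 to 61.5) and CT44 female 2 at 24.84 CPM (75.9 to 88.6). Angptl8 had control CT40 male 1 at 35.07 CPM (164 to 191). Gdf15 had fasted CT36 female 1 at 9.586 CPM (1.72 to 2.07), and Fst had fasted CT36 female 2 at 16.97 CPM (1.29 to 1.55). Among the fetuins, Fetub in fasted CT36 male 1 was at 439.7 CPM (419 to 422) and Ahsg in control CT36 female 2 at 9497 CPM (7290 to 7555), both within 1.5 times the other values.

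The fasting effect differed between the nights, by a test of the difference itself, for Angptl6 (-0.78 on the log2 scale), Enho (-0.68) and Fetub (-0.32). The call was lost in 8 of 20 alternatives for Enho, in 3 of 20 for Fetub and in 0 of 20 for Angptl6.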

How the results depend on the processing

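No called result of the members changed direction under any alternative run. Fgf21, Angptl4, Angptl6, Angptl8, Fetub and Enho kept their call in the mean under all 30. The 39 calls over 9 members and 9 times became 32 to 38 when 1 mouse of a sex was left out of every group, which leaves a lone library of that sex assumed to vary like the others. With the replicate block there were 38, Angptl4 at CT32 (1.21, adjusted p = 0.0522) being lost, as were Ahsg in the mean (0.11, adjusted p = 0.0535) and in the fasted rhythm (0.31, adjusted p = 0.0529), and no other call of a member changed. Over 20 pairs of groups the deviations of same-numbered mice had r from -0.056 to 0.249 (median 0.002, 1 above 0.1), so the numbers were not taken to pair the mice. Without 1 mouse the members called were 1 to 3 for the change between nights (3 with all mice), 0 to 1 at CT8 (0) and for the sex difference of the effect (0), 1 to 3 for the control rhythm (2) and 3 to 5 for the rhythm difference (5). With no filter they were 5 between nights, 3 at CT8, 3 for the sex difference of the effect and 6 for the sex difference in controls (3). In that fit 16.8% of all genes were called for the sex difference in controls, against 39.2% with the filter. There the SE of Fgf21 at CT32 was 0.22 against 0.72, while fewer of all genes were called in the mean (27.4%). By limma-voom 1 member was called for the sex difference of the effect and 3 for the rhythm difference. Males alone gave 1 control rhythm. Females alone gave 3 fasted rhythms (6 with both) and 3 rhythm differences, with 21.2% and 7.68% of all genes called. The share of all genes called ran from 0 to 3.05% at CT12, from 0 to 9.51% at CT8, from 1.05 to 17.5% for the sex difference of the effect, from 6.46 to 26.8% between nights, from 7.68 to 29% for the rhythm difference and from 27.4 to 70.9% in the mean. That share ran from 20.2 to 47.6% for the control rhythm and from 21.2 to 53.5% for the fasted rhythm. For the sex difference in controls it ran from 16.8 to 46.3%. DESeq2's size factors moved the median of all genes by at most 0.03 on the log2 scale. With at least 1.5-fold required, the onset of Angptl6 was CT28 in place of CT24, and Fetub had none. The depth was at least 25534901 counts. From CT12 on Fgf21 had 2 to 116 counts in fed mice and at least 12 in fasted mice. The lowest fasted counts of Fst and Gdf15 were 36 and 40. Which members the depth limited was not tested.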

Other observations

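In the 3 control libraries with the least Angptl4, the level of Angptl8 was 186 CPM (CT20 female 1, with 3.99 CPM of Angptl4), 30.96 CPM (CT28 female 2, 5.88 CPM) and 156 CPM (CT16 male 1, 11.8 CPM). These libraries were chosen after their values were seen. CT20 female 1 and CT16 male 1 were the highest of their groups in Angptl8, and CT28 female 2 was not, since CT28 female 1 had 32.4 CPM.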
